A study of Rattus norvegicus with 448 samples.

Results

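The livers with the highest and the lowest Dbp were compared here: 80 liver libraries at each end of a ranking by the measured level of Dbp. The study took liver from outbred rats at 17 weeks of age to relate loci for metabolic traits to genes with a local genetic effect on their expression. All libraries form 1 group in the labels, total RNA extracted with Trizol from snap-frozen liver. The labels used here give no sex, genotype, treatment, diet or hour of collection. Of the libraries in the labels, 430 had a matching column of values and 18 had none, and 38 of the 430 had fewer than 15000 genes above 0 and were not ranked. The libraries between the ends make up 59.2% of those ranked. The libraries were chosen by their own Dbp level, so Dbp itself is only described and is left out of every test.

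Dbp encodes the D-box binding protein, a transcription factor with a basic leucine zipper that was first found at the albumin promoter. In the liver its transcript is an output of the circadian clock: CLOCK and BMAL1 switch the gene on through E-boxes, and the PER and CRY proteins and the REV-ERB receptors close the loops that make the clock swing. With its relatives Tef and Hlf, and opposed by Nfil3 at the same D-box sites, it is known to drive rhythmic genes of detoxification and metabolism. Dbp is known as a liver transcript with a very wide daily swing in rodents. This is background, and no clock phase was measured in these samples.

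The table pairs no gene ID with a symbol. The ID ENSRNOG00000021027 is taken as Dbp, as the ranking rule names it. The reference table used here held no IDs of this kind, so none of the 16796 IDs could be paired with a symbol (0 matched). The lists of clock, metabolic, stress and cell type marker genes drawn up for the comparison thus gave no values. The label of the tissue was not checked against liver markers. Genes other than Dbp are therefore described by number, with 4 printed by their IDs. The genome build of the counts is not given in the sources used here, so no position is given for a gene.

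Dbp spanned a wide range without a gap. Levels are taken as FPKM, which counts fragments relative to gene length and library size. Over the ranked libraries Dbp ran from 0.738 to 169.2 FPKM, a 229.3-fold range, with a median of 5.62. In the high end the lowest library had 16.03, the median 33.7 and the highest 169.2 FPKM. In the low end these values were 0.738, 2.41 and 3.08 FPKM. The medians of both ends lay 14-fold apart, and the high end itself covered a 10.6-fold range against 4.18-fold in the low end. The last library inside the high end had 16.032 FPKM and the first outside it 16.028. At the low end these values were 3.082 and 3.090. Both limits thus cut through a continuous series of libraries, most of which lay toward the lower side: 68.6% of them were under 10 FPKM.

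**Figure D1:**
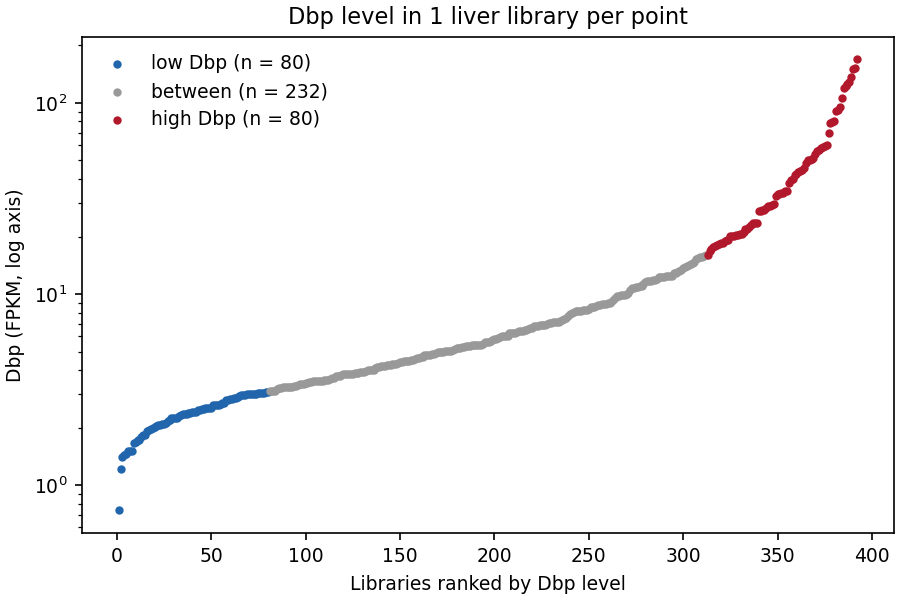
Dbp level in FPKM (log axis) of all ranked libraries, 1 point each, in order of level. Blue points are the 80 lowest (0.738 to 3.08 FPKM), red points the 80 highest (16.03 to 169.2 FPKM) and grey points those between them, and the series runs on without a step at either limit.

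High Dbp went with low title numbers. The title number is the running number in a library's title, and the labels do not say what it stands for. Its median was 110 in the high end and 341.5 in the low end, with 245.5 in between. The mean was lower by 160 in the high end (adjusted p = 5e-05, permutation test, two-sided, from the smallest p that 100000 resamples can give). Cut by title number into 4 blocks of 98 libraries each, the median of Dbp was 12.8, 8.16, 4.77 and 3.6 FPKM. The first block, with the lowest title numbers, held 44 libraries of the high end and 12 of the low end. The second held 26 and 12, the third 5 and 20, and the fourth 5 and 36. Each block held libraries of both ends, so every difference below could also be taken within blocks.

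**Figure D2:**
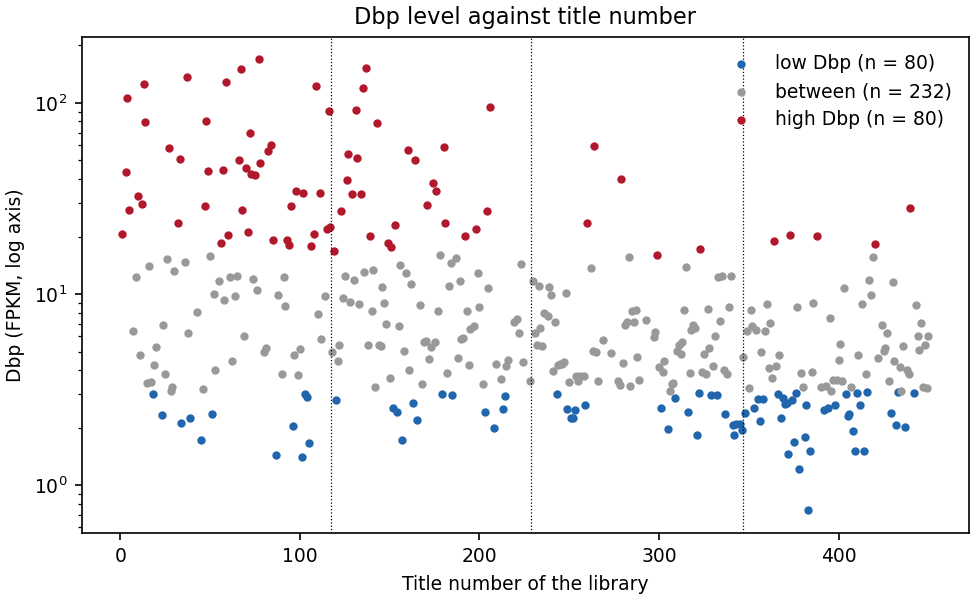
Dbp level in FPKM (log axis) against the title number of the library, with 80 low (blue), the intermediate (grey) and 80 high (red) libraries, and dotted lines between the 4 blocks. The block median falls from 12.8 to 3.6 FPKM, and the 2 later blocks hold 10 of the 80 high libraries.

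Libraries with high Dbp were also somewhat shallower. They had a median of 15785 genes above 0, against 15962 in the low end (adjusted p = 0.00119, permutation test), and this number was a covariate of the fits across genes unless another is named. Reads were not used here, but low FPKM values step by whole reads, and a relative depth read from those steps had a median of 0.938 in the high end and 1.13 in the low end, on a scale where the median library is 1 (adjusted p = 0.00119, permutation test). Absolute depth was not reconstructed. Total FPKM had a median of 555230 and 532820 (adjusted p = 0.000925), and the share of the 100 highest genes 34% and 33.6% (adjusted p = 0.0918), by the same permutation test in a family of 5 measures. The part of depth in the differences that remain after the covariate was not tested beyond the alternative with relative depth as covariate, which is given below.

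Libraries that share the first part of their identifier tended to have similar Dbp. What that part means is not given in the labels. Among 99 such pairs of ranked libraries, 9 pairs lay wholly in the high end, 9 wholly in the low end and 1 had a member in each. That is 5.26% opposite among the pairs with both members in the ends, against 28.6% for pairs with different identifiers at most 6 title numbers apart and 51% for pairs farther apart. The correlation of log2 Dbp within pairs was 0.491 over 99 sharing pairs, 0.27 over 1970 neighbouring pairs and -0.0103 over 74567 distant pairs, as a description with no test, since a library enters many pairs. The median size of the difference within a pair was 0.761, 0.863 and 1.11 on the log2(FPKM + 1) scale. Libraries of 1 end were therefore not independent. The p-values of the permutation tests above and those below take them as independent, and measure only the spread between these libraries. The labels do not say that each is a separate animal.

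Away from Dbp itself, many genes differed a little between the ends and a small number differed widely. Of 12185 genes tested with limma on log2(FPKM + 1), 1388 were higher in the livers with high Dbp (11.4% of those tested) and 1159 were lower (9.51%), at an adjusted p under 0.05. Together these are 20.9% of the genes, with 4148 at an unadjusted p under 0.05. Most of these differences were small: the median size was 0.167 (log2) among the 2547 genes, and 77.5% of them lay under 0.25. A difference of at least 0.5 was reached by 41 genes that were higher and 53 that were lower, together 94 genes or 0.771% of those tested. A difference of at least 1, on a scale that understates the change of genes near 1 FPKM, was reached by 5 genes that were higher and 6 that were lower. The median difference over all genes tested was 0.00314, close to 0.

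**Figure D3:**
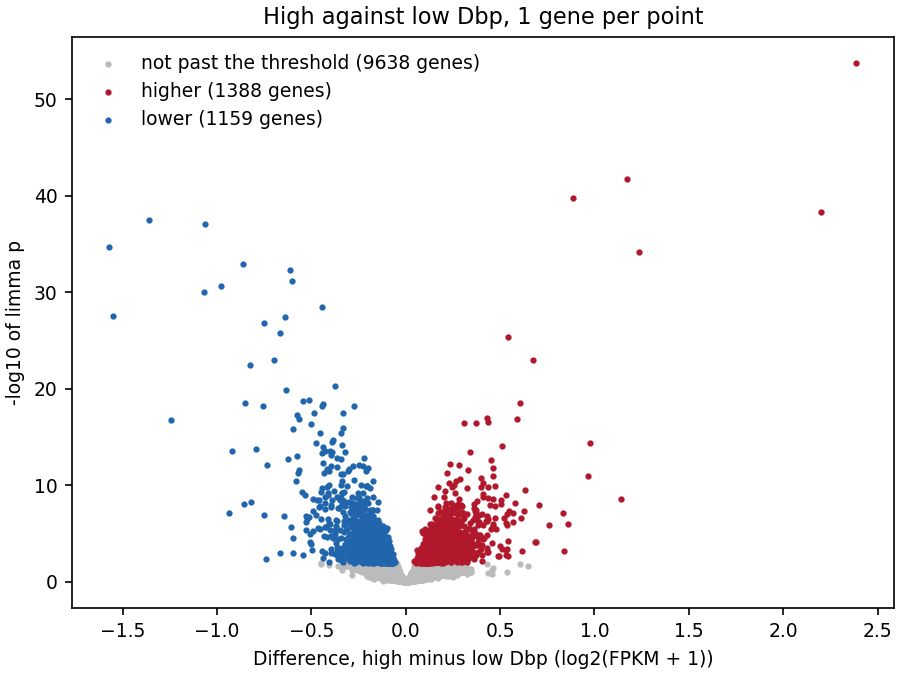
Difference between high and low Dbp (log2(FPKM + 1), x axis) against the -log10 of limma's p (y axis), 1 point for each of 12185 genes, Dbp left out. Red points are the 1388 genes that were higher and blue points the 1159 that were lower at an adjusted p under 0.05, and a few genes at both sides stand far above the dense base of small differences.

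A wide difference and a clean separation of the ends did not always go together. Separation is given as the share of the pairs made of 1 high and 1 low library in which the gene is higher in the first. There were 5 genes that were higher in at least 95% of these pairs and 9 that were lower in at least 95%, and at 90% the numbers were 7 and 17. Among the 5 genes that were higher by at least 1, the share ran from 77.7% to 99.9%. Among the 6 that were lower by at least 1, the share of pairs with the lower value in the high end ran from 87.6% to 99.9%. These 11 genes were not confined to one level of expression: their mean levels ran from 0.741 to 7.08 on the log2 scale. Genes past the threshold were found at all levels, with 10.2%, 9.26%, 11.1% and 15% of the genes higher in 4 equal bins from the lowest to the highest mean level, and 6.73%, 8.9%, 10.8% and 11.7% lower.

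The 2 genes with the widest rise and the 2 with the widest fall on the log2(FPKM + 1) scale are printed by their IDs. They were picked after their values were seen, for their rank. ENSRNOG00000013982 had the widest difference in this fit. Its lowest, median and highest level was 144.9, 362.1 and 1225 FPKM in the high end and 33.4, 67.7 and 173.5 FPKM in the low end. The ends overlapped by few libraries: 78 of the 80 high libraries lay above every low one, and 4 low libraries lay above the lowest high one. The medians differed 5.35-fold and the fitted difference was 2.39 (log2, SE 0.10, n = 80 in each end, adjusted p = 1.9e-50 by limma). It was higher in 99.9% of the pairs of a high and a low library.

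ENSRNOG00000009329, the other wide rise, had 9.72, 34.9 and 107.3 FPKM as lowest, median and highest level in the high end, and 0.885, 7.38 and 40.3 FPKM in the low end. Its ends overlapped far more, with 33 of the 80 high libraries above every low one and 31 low libraries above the lowest high one. The fitted difference was 2.20 (log2, SE 0.126, n = 80 in each end, adjusted p = 1.31e-35 by limma), the medians differed 4.73-fold, and the gene was higher in 96.1% of pairs. A low Dbp level thus did not fix this gene at a low level: it ran over a wide range among the low libraries.

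ENSRNOG00000014448 had the widest fall in this fit, next to ENSRNOG00000009019, and their order depended on the scale and the fit. Its lowest, median and highest level was 0.377, 7.26 and 15.1 FPKM in the high end and 13.3, 19.4 and 26.6 FPKM in the low end. In 79 of the 80 high libraries it lay below every low library, and 4 low libraries lay below the highest high one. The median of the low end was 2.67-fold that of the high end, and the fitted difference was -1.57 (log2, SE 0.0975, n = 80 in each end, adjusted p = 3.69e-32 by limma). The low libraries were packed within a narrow range, and the high libraries reached down to nearly no signal.

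ENSRNOG00000009019 fell with wide overlap. Its lowest, median and highest level was 0.17, 1.9 and 8.68 FPKM in the high end and 1.9, 9.73 and 27.4 FPKM in the low end. There were 40 high libraries below every low one and 33 low libraries below the highest high one. The low median was 5.13-fold the high one, the fitted difference was -1.55 (log2, SE 0.115, n = 80 in each end, adjusted p = 2.52e-25 by limma), and the gene was lower in 93.4% of pairs. By the ratio of medians its fall was thus the wider of both. Its fitted fall was also the wider with a pseudocount of 0.5 FPKM (-1.74, against -1.68 for ENSRNOG00000014448), without a covariate (-1.73 against -1.61) and with a curve of the title number (-1.71 against -1.50).

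The relation of these genes to Dbp was graded, and its shape differed from gene to gene. In 10 bins of 39 or 40 libraries from the lowest to the highest Dbp, with bin medians of Dbp from 2.03 to 57.3 FPKM, the median of ENSRNOG00000013982 was 63.9 FPKM in the first bin, 96.5 in the fifth, 216.9 in the eighth and 549.5 in the last. It went on rising through the high end, where its Spearman correlation with Dbp was 0.868 over 80 libraries, against 0.191 within the low end. ENSRNOG00000014448 went the other way, with bin medians of 21.7, 17.3, 11.6 and 4.48 FPKM in the same bins. Its correlation with Dbp was -0.855 within the high end and -0.376 within the low end. These correlations are descriptions, and each library's values share one scaling factor.

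The other pair of genes had curves of other shapes. ENSRNOG00000009329 had bin medians of 8.2, 6.87 and 7.8 FPKM in the lowest 3 bins, 10.9 in the fifth and 44.9 in the last. Within the low end it had a correlation of -0.176 with Dbp, and within the high end 0.572. ENSRNOG00000009019 had a bin median of 12.6 FPKM in the first bin and 7.75 in the second, then 4.45 in the fifth and 1.37 in the last. Its largest step between neighbouring bins, in FPKM, was this first one, and its correlations with Dbp within the ends were alike (-0.424 in the high end, -0.392 in the low end). The difference between these curves was not tested.

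**Figure D4:**
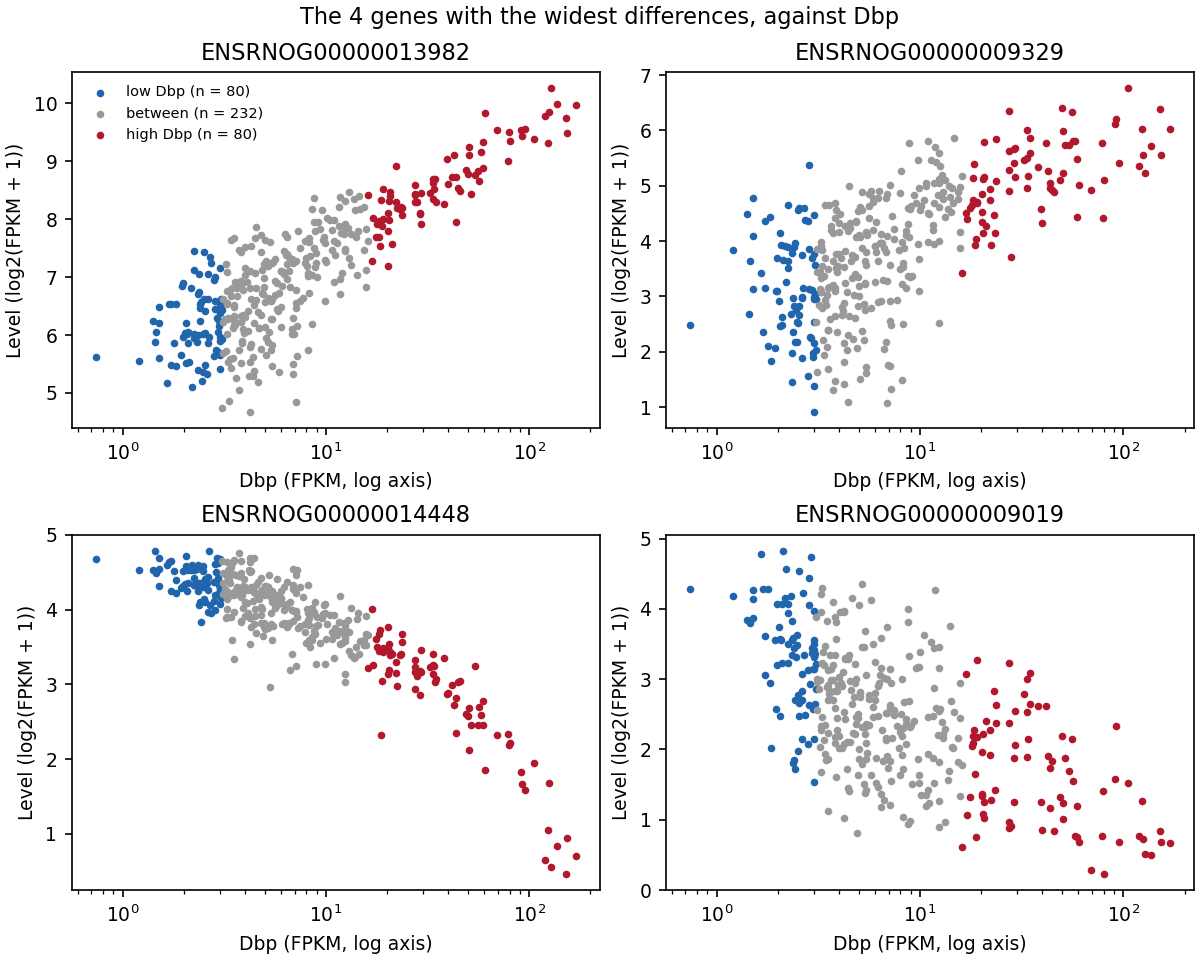
Level of 4 genes (log2(FPKM + 1), y axis) against Dbp (FPKM, log axis) in the ranked libraries, 1 point each, blue for the 80 low, grey for the intermediate and red for the 80 high libraries. ENSRNOG00000013982 and ENSRNOG00000014448 follow Dbp closely through the high end (Spearman 0.868 and -0.855). There, ENSRNOG00000009329 and ENSRNOG00000009019 follow it less closely (0.572 and -0.424).

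The same pattern was then examined in the libraries between both ends, which the ranking rule left out of the comparison and in which Dbp ran only from 3.09 to 16.03 FPKM. There, Dbp was used as a continuous measure, and slopes were scaled to the distance between the mean log2 Dbp of both ends (3.58). In these libraries 200 of the 12185 genes tested passed an adjusted p under 0.05 in limma (1.64%). Of these, 78 rose with Dbp (0.64% of genes tested) and the others fell (1%), with 1393 genes at an unadjusted p under 0.05. The 11 genes with a difference of at least 1 between the ends were all past this threshold with the same sign. Of the 94 genes with a difference of at least 0.5, 40 were past it with the same sign and none with the other sign, and 90 (95.7%) had the same sign. Of all 2547 genes, 6.99% were past it with the same sign, and 2383 (93.6%) had the same sign, against 75.5% of all genes tested.

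The printed genes kept their direction in these libraries. The scaled slope was 3.12 for ENSRNOG00000013982 (SE 0.266, adjusted p = 1.91e-21 by limma), 3.36 for ENSRNOG00000009329 (SE 0.337, adjusted p = 2.71e-16), -1.35 for ENSRNOG00000014448 (SE 0.104, adjusted p = 4.05e-25) and -1.32 for ENSRNOG00000009019 (SE 0.275, adjusted p = 0.000773). Their Spearman correlations with Dbp over these libraries were 0.607, 0.524, -0.63 and -0.279.

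Within the blocks of title numbers the printed genes also kept their direction. They were picked for their pooled difference over these same libraries. The block values thus describe how that difference was spread over titles and do not support it. For ENSRNOG00000013982 the difference was 2.78, 2.28, 2.25 and 1.64 (log2) in the 4 blocks, and the adjusted p of limma was at most 0.0043. For ENSRNOG00000014448 it was -1.87, -1.49, -1.17 and -0.96, with an adjusted p of at most 0.00138. ENSRNOG00000009329 differed by 2.36, 1.79, 1.96 and 1.51, and it did not pass the threshold in the third and the fourth block (adjusted p = 0.22 and 0.0619), where 5 libraries made up the high end. ENSRNOG00000009019 differed by -2.05, -1.29, -1.59 and -1.56, and did not pass it in the third block (adjusted p = 0.241). Whether the differences between blocks exceed their errors was not tested.

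**Figure D5:**
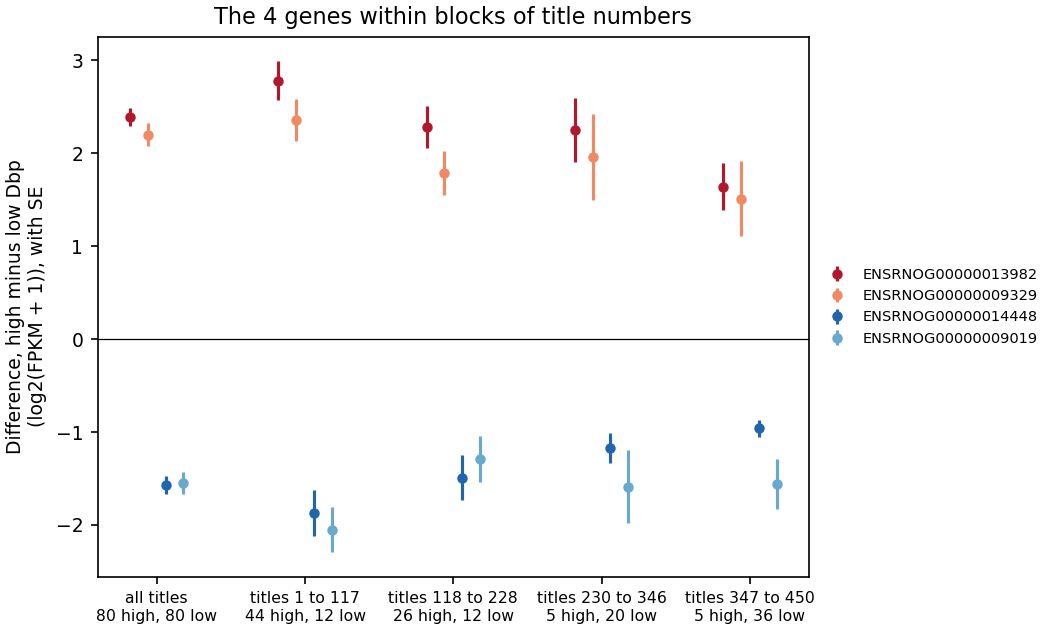
Difference between high and low Dbp (log2(FPKM + 1), y axis) of 4 genes over all titles and within each of 4 blocks of title numbers (x axis, with the number of libraries), points with the SE of limma's fit. Both genes that rose lie above 0 (1.51 to 2.78) and both that fell lie below 0 (-2.05 to -0.96) in each block.

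Over many genes the blocks gave far fewer calls. In the first block 1.58% of the genes tested were higher and 1.89% lower (2979 genes at an unadjusted p under 0.05). In the second block 39 genes were higher and 78 lower (1094), in the third 3 and 2 (842) and in the fourth 18 and 30 (2192). All 11 genes with a difference of at least 1 had the same sign in the 4 blocks, as had 83 of the 94 genes with a difference of at least 0.5 (88.3%) and 1884 of the 2547 (74%), against 33.9% of all genes tested. The blocks are parts of the pooled comparison, so these shares describe how evenly a difference was spread over titles and do not support it. With a smooth curve of the title number as covariate, 1831 genes were higher and 2096 lower. In that fit 88 of the 94 genes, and 1933 of the 2547, were called again in the same direction, so the larger counts include many other genes.

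The 11 genes with the widest differences were also compared with each other in the intermediate libraries. All 11 followed Dbp there with the same sign, so correlations among them are partly given by that relation and do not support it. In the intermediate libraries, with the number of genes above 0 removed, 23 of the 25 pairs of genes that moved the same way between the ends had a positive correlation (median 0.458, from -0.0346 to 0.747). Of the 30 pairs that moved in opposite ways, 28 had a negative one (median -0.307, from -0.821 to 0.0572). The median size of the correlation was 0.386 over these 55 pairs and 0.193 over all pairs of genes tested. When Dbp was removed as well, 21 of the 25 pairs had a positive and 22 of the 30 a negative correlation, and the median size over the 55 pairs was 0.18, against 0.193 over all pairs. Of the 55 pairs, 15 (27.3%) had a correlation of at least 0.5 in size, against 12.9% of all pairs of genes. With Dbp removed these numbers were 12 (21.8%) and 13%. These are descriptions over libraries that share neighbours and identifiers.

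At the level of single libraries the 4 printed genes sorted most of the ends but also split the middle. A gene was counted as on the high-Dbp side if it lay on that side of its own median over the ranked libraries. All 4 genes were on that side in 63 of the 80 high libraries, 3 genes in 16 and 2 in the remaining 1. In the low end none of the 4 was on that side in 52 libraries, 1 gene in 19 and 2 genes in 8. There was 1 library of the low end with all 4 genes on the high side, 2 of them close to their medians. In it ENSRNOG00000009019 had 4.598 FPKM against a median of 4.6, and ENSRNOG00000014448 had 14.5 against 15. Among the intermediate libraries, 37 had all 4 genes on the high side and 52 had none. As the genes were picked for their difference between the ends, the counts in the ends are a description only.

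The ends lay farther apart on the third axis of variation among livers than on the first. The first principal component of the 12185 genes held 40.1% of the variance, and the means of both ends lay 0.529 SD apart on it. On the third component, which held 3.21%, they lay 1.0 SD apart, and on the second, the fourth and the fifth 0.122, 0.165 and 0.467 SD. The size of the Spearman correlation with Dbp over the ranked libraries was 0.187 for the first component and 0.359 for the third. With the first component as a further covariate, 1721 genes were higher and 1266 lower, and the 94 genes with a difference of at least 0.5 were all called in the same direction. With relative depth in place of the number of genes above 0, the numbers were 1466 and 1451, and again all 94 were called. Of all 2547 genes, 2221 were called again in the same direction with the first component and 2367 with relative depth. The 94 and the 2547 genes were picked in these same libraries, so their recall is a description and does not support the differences. A further fit took Dbp as a continuous measure among libraries that share an identifier, with the identifier as a block (81 identifiers, chosen after the data were seen). In it 749 genes were higher and 786 lower. Of the 94 genes 50 were called in the same direction, and of the 2547 genes 763, so these counts include many other genes.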

How the data were processed

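The authors deposited 1 table of 16796 gene IDs and 431 columns, whose header names no unit. Its values were taken as FPKM made by the authors, as the ranking rule names them. For a given gene and library they are whole multiples of a step, which other scaled counts also are, so the unit was not checked. Per the submitters' processing notes the tools were DESeq2, featureCounts, Picard and STAR, with no version. Paired-end reads were 37 bp long, per the labels' protocols. The genome build is not given in the sources used here. Columns were matched by the identifier in the labels. Of 448 libraries in the labels, 18 matched no column, and 1 column matched no library; neither was used. The 38 libraries with fewer than 15000 genes above 0 were not ranked, which left 392, with 232 between the ends.

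Tests used limma 3.58.1 (R 4.3.3, moderated test with a variance trend) on log2(FPKM + 1) of genes at 1 FPKM or more in 10% of the ranked columns, high against low end, with the number of genes above 0 as covariate and Benjamini-Hochberg adjustment over all genes tested (threshold 0.05). The step of low values gave each library's relative depth, as the most common ratio to a reference library over 2959 genes above 0 in under 90% of libraries. The rule for naming genes required a symbol and named none. The 4 IDs were chosen after their values were seen. The ranking, the gene lists and the tests were chosen with earlier results of these data known. The fit was tested on simulated data of 12185 genes. It called 13 of 50 genes given a log2 difference of 0.1, 40 of 50 given 0.25 and 50 of 50 given 0.5. Of 11985 genes given none it called 5. These numbers describe the simulated data and give no rate of false calls for the real libraries, which were not independent. Alternatives numbered 19, with 3 more added after the data were seen (relative depth as covariate, 1 library per identifier, and the shared identifier as a block). Python 3.11.15 drew the figures with matplotlib 3.10.9.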

Additional observations from a re-analysis of the deposited data

How the results depend on the processing

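The counts of 1388 higher and 1159 lower genes, 11.4% and 9.51% of genes tested, depended on the libraries and genes that entered and on the covariate. They were 840 and 719 (13.8% and 11.8%) for genes at 10 FPKM or more, 21.9% and 26.5% without a covariate, 19.8% and 20.6% with all 430 libraries ranked, and 0.64% and 1% with Dbp continuous over the libraries between the ends. In the blocks of title numbers they were 1.58% and 1.89%, 0.32% and 0.64%, 0.0246% and 0.0164%, and 0.148% and 0.246%. With 1 library per identifier (71 in each end), chosen after the data were seen, they were 7.32% and 5.93%, and 1590 of the 2547 genes were called again in the same direction. With Dbp continuous and the shared identifier as a block, also chosen then, they were 6.15% and 6.45%. The lower genes came to 14.3% with 120 libraries at each end and 17.2% with a spline of the title number. Fewer genes were tested at 10 FPKM, and fewer libraries entered the blocks of title numbers and the fit with 1 per identifier. What caused the change in count was not tested for any of these alternatives. In the other alternatives both counts stayed within 1.5 times. With libraries that share an identifier as a random effect (correlation 0.189), 1242 genes were higher and 1014 lower. Among genes called again in an alternative, 3 of the 2547 were called in the other direction, with the identifier as a block, and none in the other 21 alternatives; estimates that were not called could turn. Over 22 alternatives the estimate ran from 1.64 to 3.12 for ENSRNOG00000013982 and from 1.51 to 3.36 for ENSRNOG00000009329. The values of 3.12 and 3.36 are slopes over the libraries between the ends, scaled beyond the range of Dbp there, and not differences between ends. The estimate ran from -2.22 to -0.96 for ENSRNOG00000014448 and from -2.09 to -0.91 for ENSRNOG00000009019. The value of -0.91 came with a pseudocount of 5 FPKM, which shrinks differences of genes at low levels. Of these 4 genes, calls were lost in blocks of title numbers only, in 2 of them for ENSRNOG00000009329 and in 1 for ENSRNOG00000009019. No paired analysis of high against low was possible because the labels give no replicate numbers that pair libraries of both ends, and 1 pair with a shared identifier has a member in each; the fit with the identifier as a block uses continuous Dbp for that reason.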
